A study of Mus musculus with 2 samples.

Results

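The genes described here are Upp1, which encodes uridine phosphorylase, and 9 further genes of pyrimidine salvage and synthesis (Uck1, Uck2, Tk1, Dck, Cad, Dhodh, Umps, Tyms and Ctps). They were selected by gene symbol from the probe annotation of the array, as 10 of the 12393 genes with a probe set of their own, and the set was put together around Upp1 with its large difference already known. Transcripts of 2 clones were compared, both derived from the mouse embryonic stem cell line E14tg2a. Clone 4 of the shDAB2 cells was stably transfected with plasmid shDAB2-285, which encodes a short hairpin RNA against Dab2, an endocytic adaptor gene. Clone 9 of the vector cells (ES-V9) carries the control plasmid. The medium of both was GMEM with fetal bovine serum (10%) and LIF (leukaemia inhibitory factor, 1000 U/ml), which keeps such cells undifferentiated. Each kind of cell is represented by 1 clone on 1 Affymetrix mouse 430A array, so hairpin, clone and culture cannot be told apart, no test across samples exists, and every value below is a single measurement.

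The deposited values are on the log2 scale, and every difference is given as shDAB2 minus vector. A gene with several probe sets is represented by the brightest, the one with the highest mean of both arrays. Genes whose higher value reached 6.62, the median of all values, are called above the floor; 7269 genes were. The arrays correlated at r = 0.988 over all 22626 probe sets. The only repeat measurement was between probe sets of the same gene, whose differences had an SD of 0.11 for 1 probe set (2502 genes), covering probe noise and transcript variants alone. Dab2, the targeted gene, read 6.33 in shDAB2 cells against 6.64 in vector cells on its brightest probe set, a difference of -0.31, with -0.05 and -0.01 on the others. The vector value barely reached the floor and the shDAB2 value lay below it, so the extent of a knockdown cannot be judged from these values. All 8 listed stem cell markers lay above the floor, as did 7269 of all 12393 genes. Among the markers were Pou5f1 (0.10), Sox2 (-0.17) and Nanog (-0.02). Of the 8, Fgf4 alone passed 1.5-fold, at 0.61, with 0.34 and 0.18 on its next 2 probe sets. Over all genes above the floor, 0.578% passed this limit upward and 1.62% downward.

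Cells obtain pyrimidine nucleotides by building the ring from glutamine, bicarbonate and aspartate, or by taking up finished nucleosides and phosphorylating them. Uridine stands where these routes meet breakdown. Uridine-cytidine kinases commit it to UMP, whereas uridine phosphorylase splits it reversibly into uracil and ribose 1-phosphate. Embryonic stem cells divide fast and spend little time in G1, so their demand for deoxynucleotides is high.

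Promoter windows, each from 250 bases before to 50 after a RefSeq transcript start in GRCm38.p6, were at hand for 9 of the 10 genes (13 windows; Dhodh had no entry). Those of Upp1 and Cad are shown because these genes had the largest positive and the largest negative difference of the set on their brightest probe sets. The sequences run 5′ to 3′ on the strand of the gene, and capitals mark the GC box GGGCGG, known as a site for Sp1-type factors, and the AP-1 motif TGANTCA, each searched on both strands. The array measured transcripts and not promoter activity.
Upp1, outermost start, chr11:9117758-9118057, plus strand: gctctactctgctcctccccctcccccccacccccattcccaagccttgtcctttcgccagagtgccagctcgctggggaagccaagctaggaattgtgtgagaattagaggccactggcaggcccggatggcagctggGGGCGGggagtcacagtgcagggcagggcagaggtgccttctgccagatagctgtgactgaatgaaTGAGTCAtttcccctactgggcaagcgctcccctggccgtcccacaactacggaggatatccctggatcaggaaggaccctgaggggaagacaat
Upp1, innermost start, chr11:9118257-9118556, plus strand: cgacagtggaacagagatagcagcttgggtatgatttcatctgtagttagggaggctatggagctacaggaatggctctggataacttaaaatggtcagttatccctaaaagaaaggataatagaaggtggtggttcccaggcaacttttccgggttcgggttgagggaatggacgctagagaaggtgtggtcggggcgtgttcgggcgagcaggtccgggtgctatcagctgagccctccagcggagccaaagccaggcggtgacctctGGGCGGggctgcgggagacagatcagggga
Cad, chr5:31054530-31054829, plus strand: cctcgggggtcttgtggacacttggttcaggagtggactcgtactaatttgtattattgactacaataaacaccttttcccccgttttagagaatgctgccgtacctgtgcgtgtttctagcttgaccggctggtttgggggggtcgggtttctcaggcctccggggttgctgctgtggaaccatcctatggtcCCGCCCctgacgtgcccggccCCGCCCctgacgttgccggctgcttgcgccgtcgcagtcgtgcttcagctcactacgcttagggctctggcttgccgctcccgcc

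The GC box occurred in 10 of the 13 windows, and in 35.7% of all 32851 windows of this length. Counted by gene, 8 of the 9 had it in some window, Uck1 being the one without. The 13 windows held 50% to 68.3% G and C, where the median over all windows was 52.7%. The share of all windows was not matched for base composition. The AP-1 motif, added to the search after the Upp1 sequence was seen, occurred in 2 of the 13 windows, both of them overlapping windows of Upp1, and in 7.81% of all windows. The outermost Upp1 window held 7 CpG dinucleotides, equal to the median of 7 over all windows, and the innermost held 13. The Cad window held 21, and the range over the 13 windows was 7 to 27. The E-box CACGTG, the target of Myc-type factors, was found only in Tyms among the genes with a window (7.15% of all windows). The E2F letters TTCCCGC or TTGGCGC were found in 0 of the 13 (6.81% of all). The letters TGACNNNGC of the antioxidant response element were found in Cad, Dck and Uck2 (12.4% of all), and CCAAT in Uck2 (37.4% of all). These matches are descriptions of letters and not of bound sites.

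Upp1 was much higher in the shDAB2 clone than in the vector clone. Its probe set read 9.47 in shDAB2 cells against 7.86 in vector cells. The difference of 1.62, or 3.07-fold higher, was the largest positive one among the 7269 genes above the floor and was exceeded in size by only 1 gene, which was lower. For comparison, the 500 probe sets nearest in signal differed with an SD of 0.30. The array carries 1 probe set for Upp1, so no second probe set was there to repeat the value. In RNA from a whole culture, a larger share of cells with the transcript and more transcript per cell cannot be told apart. The gene was put at the head of this set because of this difference, which is therefore given as a description.

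**Figure D1:**
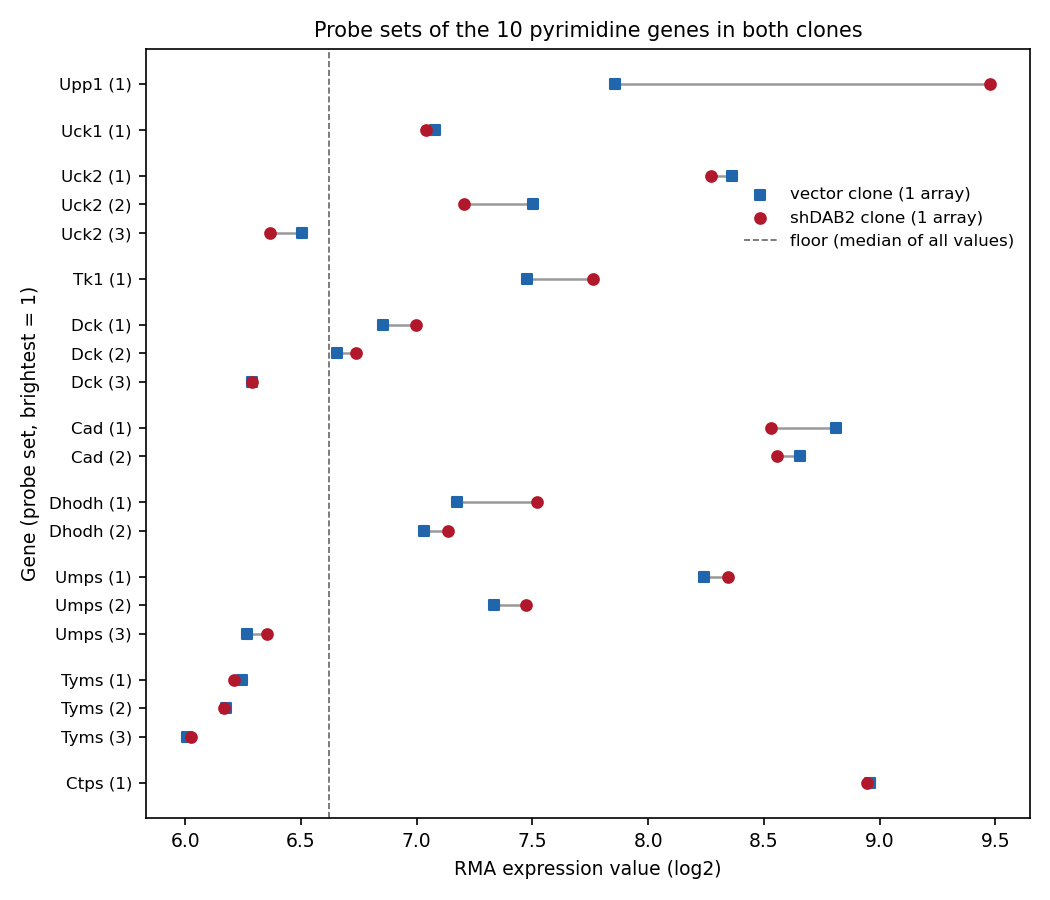
RMA expression (log2, horizontal axis) of every single-gene probe set of the 10 genes, numbered from the brightest. Squares are the vector clone, circles the shDAB2 clone, and the dashed line is the floor of 6.62. Upp1 spans 7.86 to 9.47, while no other probe set differs by more than 0.35.

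The salvage kinases showed small differences in both directions. Uck1 and Uck2 encode the cytosolic uridine-cytidine kinases, which compete with uridine phosphorylase for uridine. Uck1 read 7.04 in shDAB2 cells against 7.08 in vector cells, a difference of -0.04 that is within the SD of 1 probe set. Uck2 read 8.27 and 8.36, in the same order, on its brightest probe set, a difference of -0.09. Its second probe set read 7.20 in shDAB2 cells against 7.50 in vector cells (-0.30), and the third, below the floor, read 6.37 and 6.51 (-0.14). Uck2 was thus lower in the shDAB2 clone on 3 of 3 probe sets, by amounts that differed from one to the next.

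The deoxynucleoside kinase genes Tk1 and Dck read slightly higher in the shDAB2 clone on their brightest probe sets. Tk1 encodes the cytosolic thymidine kinase, whose amount is known to follow S phase. It read 7.76 in shDAB2 cells against 7.48 in vector cells, a difference of 0.28 or 1.22-fold higher, on its only probe set; probe sets of like signal had an SD of 0.22. Dck encodes deoxycytidine kinase, which also phosphorylates purine deoxynucleosides. It read 6.997 in shDAB2 cells against 6.85 in vector cells (0.14), and its second probe set 6.74 and 6.66 (0.08). The third Dck probe set, below the floor, carried the same value of 6.29 on both arrays. Such exact ties, to 6 decimals, occurred in 340 of the 22626 probe sets.

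The de novo enzymes did not differ in 1 direction. Cad encodes the large protein that carries the opening activities of the pathway, carbamoyl phosphate synthetase, aspartate transcarbamoylase and dihydroorotase. It read 8.53 in shDAB2 cells against 8.81 in vector cells, a difference of -0.28 or 1.22-fold lower, with 8.55 and 8.65 (-0.10) on its second probe set. Both Cad probe sets were lower in the shDAB2 clone, the second by less than the SD of 1 probe set.

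Dhodh encodes dihydroorotate dehydrogenase, the mitochondrial step that passes electrons to ubiquinone. It read 7.52 in shDAB2 cells against 7.17 in vector cells, a difference of 0.35 or 1.27-fold higher. Its second probe set read 7.14 and 7.03, a difference of only 0.10. The larger value came from a probe set whose ID ends in _s_at, a suffix for probes that can match more than 1 transcript, so the size of the Dhodh difference depends on the probe set used. Umps encodes UMP synthase, which joins orotate to ribose phosphate and decarboxylates the product. It read 8.35 in shDAB2 cells against 8.24 in vector cells (0.10), and its other probe sets gave 0.14 and 0.09. All 3 Umps probe sets were thus higher in the shDAB2 clone, by nearly the same small amount.

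The members for CTP and thymidylate synthesis, Ctps and Tyms, differed by at most 0.03 in size. Ctps encodes CTP synthase, which aminates UTP. Its probe set read 8.95 in shDAB2 cells against 8.96 in vector cells, a difference of -0.01. Tyms encodes thymidylate synthase, which methylates dUMP. Its 3 single-gene probe sets lay below the floor, at 6.02 to 6.21 in shDAB2 cells against 6.01 to 6.24 in vector cells, and differed by -0.03, -0.01 and 0.02. The signal exceeded that of only 19.8% of all probe sets even on the brightest. A change in Tyms was thus not measurable with these probe sets. A further probe set annotated to both Tyms and its pseudogene Tyms-ps was not used.

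Upp1 stood apart from the rest of the set. Above the floor, 5 of its 9 genes were higher in the shDAB2 clone and 4 lower, where 50.0% of all 7269 genes were higher and 49.3% lower. Upp1 alone was at least 1.5-fold higher (0.578% of all genes above the floor were), and 0 of 9 were at least 1.5-fold lower (1.62% of all). At 2-fold the same gene remained (0.0275% of all genes were as much higher and 0.179% as much lower). At a lower limit of 0.32 on the log2 scale Dhodh joined Upp1 (4.91% of all genes passed it upward), and no member passed it downward (6.07% of all). Differences smaller than the SD of 1 probe set were found in 4 of the 9 genes and in 48.8% of all genes. The 8 genes other than Upp1 ran from -0.28 to 0.35, inside the range of -0.49 to 0.40 that held the central 95% of all genes. Their median was 0.05, with 4 higher and 4 lower, against 0.0006 for all genes above the floor. The set was chosen from this same contrast, so these shares describe it and support nothing further.

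**Figure D2:**
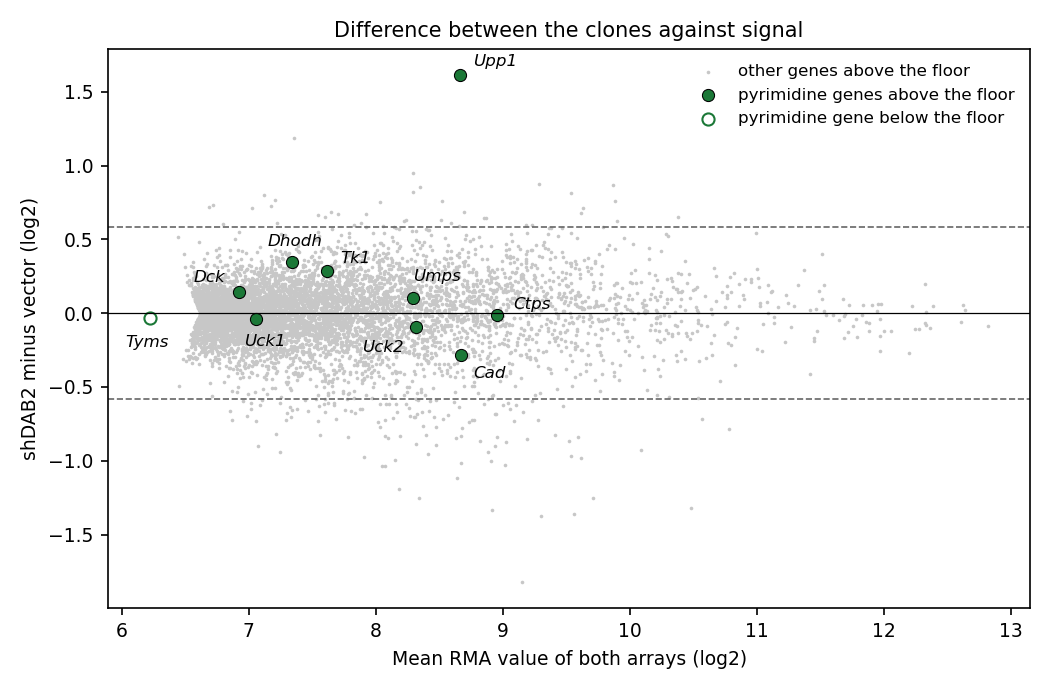
Difference between the clones (shDAB2 minus vector, log2) against the mean signal of both arrays (log2) for genes above the floor (grey) and the 10 pyrimidine genes (green; open for Tyms, below the floor). Dashed lines mark 1.5-fold. Upp1, at 1.62, is the highest point of the plot, and the other members lie inside the 1.5-fold lines.

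The genes nearest to Upp1 in their difference were Gpx2, a glutathione peroxidase gene, Cbr3, a carbonyl reductase gene, and the selenoprotein gene Selenoh. Gpx2 differed by 1.19, which is 0.43 short of Upp1, Cbr3 by 0.95 and Selenoh by 0.87. Each of these genes has 1 probe set. Likeness over 2 arrays means only a similar size of difference.

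The 3 measured genes on either side of Upp1 on chromosome 11, in RefSeq order, lay between -0.23 and 0.35. Hus1, a DNA damage checkpoint gene and the nearest measured gene on one side, read 6.96 in shDAB2 cells against 6.60 in vector cells (0.35). Beyond it lay Igfbp3, an insulin-like growth factor binding protein gene, at -0.23, and Igfbp1 of the same family, below the floor, at 0.03. On the other side Zpbp, a sperm protein gene below the floor, differed by 0.02, the lymphoid transcription factor gene Ikzf1 by -0.05 and the DNA repair gene Fignl1 by -0.02. Tk1, the other member on this chromosome, differed by 0.28 as given above.

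Other steps of pyrimidine metabolism were compared through 7 lists with 60 genes, of which 50 were measured and 40 lay above the floor. In the shDAB2 clone 25 of the 40 were higher and 15 lower, 62.5% higher against 50.0% of all genes, with a median of 0.07. Dctpp1 alone was at least 1.5-fold higher (0.578% of all genes above the floor were) and 0 were at least 1.5-fold lower (1.62% of all).

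The second uridine phosphorylase gene, Upp2, lay below the floor, at 5.98 in shDAB2 cells against 5.95 in vector cells. The 7 catabolic genes above the floor (5 higher, 2 lower, against 50.0% of all genes higher) all lay between -0.16 and 0.12. Their largest differences were those of the nucleotidase genes Nt5e (-0.16), Nt5m (0.12), Nt5c2 (0.08) and Nt5c3b (0.07). Dpyd, which encodes the dehydrogenase that degrades uracil, was below the floor at 6.01 and 5.93.

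Of the nucleoside transporters above the floor, Slc29a1, an equilibrative carrier of uridine and other nucleosides, read 7.96 in shDAB2 cells against 8.31 in vector cells, a difference of -0.35. Slc29a3 differed by 0.06, with 0.13 on its second probe set, and Slc29a2 by 0.04. Uckl1, which encodes a uridine-cytidine kinase-like protein, read 6.80 in shDAB2 cells against 7.14 in vector cells (-0.34). The other salvage gene above the floor, Dguok, of mitochondrial purine deoxynucleoside salvage, differed by -0.12. Uckl1 and Slc29a1 have 1 probe set each, so these values were not repeated either.

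Among genes of the steps toward DNA precursors, the values of Dctpp1 and Mthfd1 lay above the range that held the central 95% of all genes. Dctpp1 encodes a pyrophosphatase that clears dCTP and its modified forms. It read 9.99 in shDAB2 cells against 9.28 in vector cells, a difference of 0.71 or 1.64-fold, on its only probe set. Mthfd1, of the folate cycle, was higher by 0.44, with 0.29 and 0.18 on further probe sets. Dut, the dUTPase gene that supplies dUMP to thymidylate synthase, was 0.21 higher and the ribonucleotide reductase gene Rrm1 0.14, with 0.11 and 0.23 on second probe sets. This list had 5 higher and 2 lower genes above the floor (median 0.14), where 50.0% of all genes were higher.

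Among the kinases that raise nucleoside monophosphates and diphosphates 5 of 6 above the floor were higher, with a median of 0.21. Over all genes above the floor 50.0% were higher. Dtymk, the thymidylate kinase gene, was higher by 0.31, 0.27 and 0.28 on its probe sets. Nme1, a nucleoside diphosphate kinase gene, was higher by 0.27 on the brightest and differed by -0.0009 on the second. Nme4 (0.23) and Nme6 (0.19) have 1 probe set each. Dtymk was thus even over its probe sets, and Nme1 was not.

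Ribose 1-phosphate, the other product of uridine phosphorylase, can enter the pentose phosphates through phosphopentomutase. Pgm2, the gene of that mutase, read 7.24 in shDAB2 cells against 7.32 in vector cells (-0.08). The ribose phosphate list had 5 higher and 3 lower genes above the floor (median 0.13), where 50.0% of all genes were higher. Prps2, a phosphoribosyl pyrophosphate synthetase gene, was 0.41 higher but only 0.06 on its second probe set. Rpe, the ribulose phosphate epimerase gene, was 0.31 higher, with 0.23 and 0.03 on further probe sets. Prps1 was 0.28 higher and the ribose 5-phosphate isomerase gene Rpia 0.17, on 1 probe set each. Pgd, of the oxidative pentose phosphate pathway and named after its values were seen, differed by -0.03 on its brightest probe set but by 0.27 and 0.51 on its next 2, so its direction depends on the probe set. Of the 7 measured genes that use UTP and CTP, 3 read higher in the shDAB2 clone and 4 read lower. Their median difference was -0.01. Over all genes above the floor, 50.0% read higher and 49.3% lower. Some differences of this list lay close to 0, so the count says little about direction. The largest differences there were those of Cds2, of CDP-diacylglycerol synthesis (0.22), Ugp2, of UDP-glucose synthesis (0.19), the second CTP synthase gene Ctps2 (-0.07) and Cmas, of CMP-sialic acid synthesis (-0.06). The next 2 probe sets of Cds2 gave 0.26 and -0.05, and those of Ugp2 0.05 and -0.01.

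**Figure D3:**
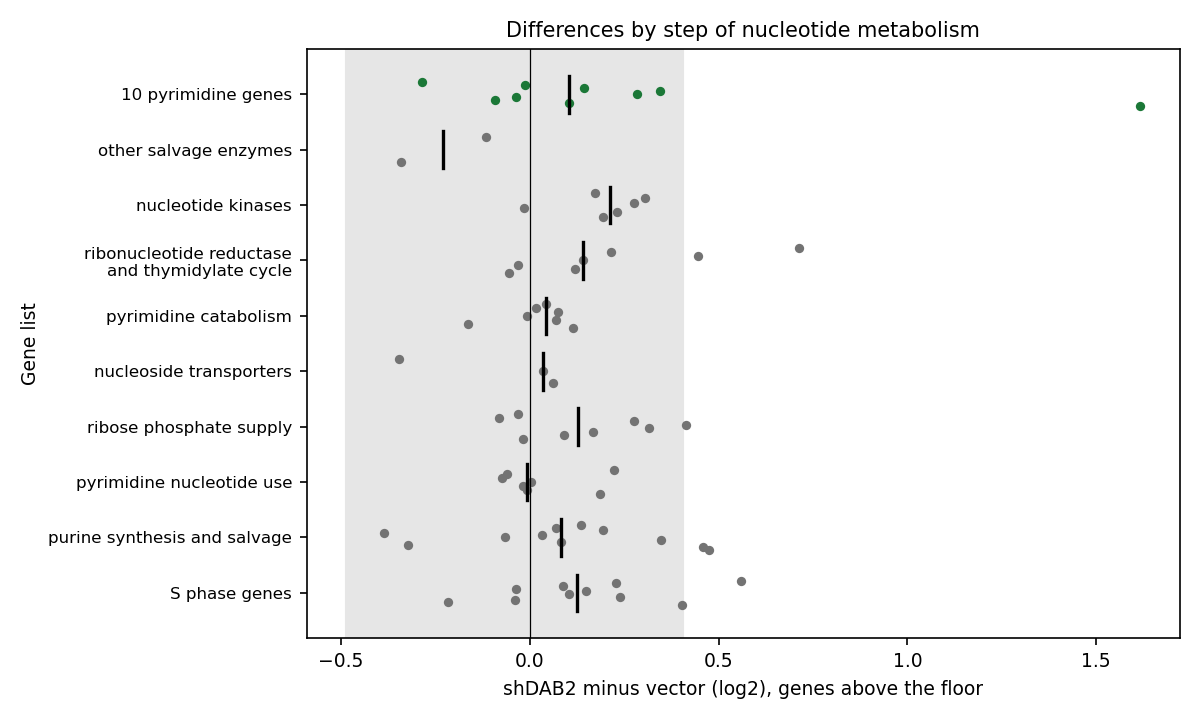
Difference between the clones (shDAB2 minus vector, log2) for each gene above the floor, by list; dots are genes, black bars list medians, and the grey band (-0.49 to 0.40) holds the central 95% of all genes above the floor. Upp1 lies far to the right of every other gene shown, of which Dctpp1 (0.71) and Ccne1 (0.56) come next.

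Purine genes and S phase genes gave a frame for these values. Of 11 purine genes above the floor, higher values in shDAB2 cells were found for 8 and lower ones for 3 (median 0.08). The share of all genes above the floor that were higher was 50.0%. Pnp, which encodes purine nucleoside phosphorylase and thus splits purine nucleosides as Upp1 does uridine, read 9.55 in shDAB2 cells against 9.09 in vector cells, a difference of 0.46 or 1.38-fold. Ppat, which encodes the first committed enzyme of purine synthesis, was 0.47 higher (0.33 on its second probe set). The guanylate kinase gene Guk1 was 0.35 higher, and Adss, of AMP synthesis, differed by -0.38. Pnp, Guk1 and Adss have 1 probe set each.

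Above the floor, the S phase list had 7 higher and 3 lower genes (median 0.13), where 50.0% of all genes were higher. The cyclin gene Ccne1 was 0.56 higher, the replication clamp gene Pcna 0.40, the helicase subunit gene Mcm5 0.24 and the origin licensing gene Cdc6 0.23. Each of these genes has 1 probe set. Tk1, at 0.28, lay within the range of this list, which ran from -0.22 to 0.56.

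Some genes listed as markers of another cell type differed between the clones as well. Of 7 trophectoderm markers 4 lay above the floor, the keratin genes Krt7, Krt8 and Krt18 and Tfap2c. All 4 were lower in the shDAB2 clone, with differences of -0.47 to -1.32, where 49.3% of all genes above the floor were lower. The mean log2 value of the list was 7.62 in shDAB2 cells against 8.07 in vector cells. The defining regulators Cdx2, Eomes and Elf5 were below the floor on both arrays, with differences of -0.03, 0.11 and 0.07. Primitive endoderm markers averaged 6.46 in shDAB2 cells against 6.47 in vector cells, and fibroblast markers 6.36 and 6.39, with 2 of 8 and 1 of 7 above the floor. Those of the endoderm list were Col4a1 (-0.29, with -0.38 on its second probe set) and Lama1 (0.13). That of the fibroblast list was Dcn (0.07). Whether cells of these other types were present, or had a part in the values of the pyrimidine genes, was not tested.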

How the data were processed

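RNA was measured on 2 arrays, 1 for each clone, with groups read from the titles. The deposited values are log2 expression per probe set, which the authors made with RMA (background correction, quantile normalization and summary over probes), per the submitters' processing notes. The sources used here do not give the RMA version or say whether further arrays were normalized alongside. The log base was taken as log2 from the range of the values, 5.65 to 12.86. RMA shrinks differences of dim probe sets, so their folds are understated, and the number of arrays limits the precision.

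Of 22626 probe sets, the platform annotation named 20380 for 1 gene, 691 for several and 1555 for none; only the first were used. The 10 symbols matched 20 probe sets and RefSeq gene IDs in GRCm38.p6. Genes named are the members and up to 4 genes with the largest difference in each other nucleotide or S phase list. Also named are the 3 genes nearest to Upp1 in difference, Dab2, Pou5f1, Sox2 and Nanog. Upp2, Dpyd, Pgm2, Pgd, Fgf4, the 6 neighbours of Upp1 and the trophectoderm genes were named after values were seen. So were Col4a1, Lama1 and Dcn. The members and lists were chosen with earlier results of these data known. With 1 array per group no p-value is given; genes are described by size at limits of 1.25-fold, 1.5-fold and 2-fold. Alternatives were cyclic loess and quantile normalization (limma 3.58.1 in R 4.3.3), median centring, other choices of probe sets, no floor, other fold limits and other summaries. The counting was tested on simulated data.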

Additional observations from a re-analysis of the deposited data

How the results depend on the processing

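Upp1 kept its direction and ran from 1.58 to 1.62 under the 5 alternatives run for single genes, and it was the gene with the largest positive difference under these and with no floor. Its only probe set has none of the suffixes named below, so the alternative choices of probe sets had to return its main value. Only the normalizations could move it, and quantile normalization is already a step of RMA. The count of genes at least 1.5-fold higher was 1 under all alternatives except the lowest fold limit (0.32 on the log2 scale), by construction, where Dhodh joined Upp1 and the count was 2 (4.91% of all genes above the floor passed it); no gene of the set was lower at this limit, at 1.5-fold or at 2-fold. The median of the set, 0.10, became 0.23 as a mean over the members, which Upp1 raises, and 0.05 without Upp1, with no floor (0.046) and without probe sets ending in _s_at, _x_at or _a_at (0.046). Dhodh was 0.22 as the mean of its probe sets and 0.10 without those probe sets. Of 49 single-gene values under alternatives 47 moved by less than the SD of 1 probe set, and the 2 that moved more were those of Dhodh. Some had no room to move. Upp1, Uck1, Tk1 and Ctps have 1 probe set each, which every choice of probe sets kept. The brightest probe sets of Uck2, Cad and Tyms carry none of the suffixes and so stayed in use when those were left out. Dck has no probe set without such a suffix, so that alternative gave no value for it. No replicates could be left out, and no paired analysis was possible because each group holds 1 array. Dim signal limits Tyms and the third probe sets of Uck2, Dck and Umps.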
